A study of Homo sapiens with 40 samples.

Results

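DND-41 is an established human line of T-ALL (leukaemia of immature T cells, or T-cell acute lymphoblastic leukaemia), and its untreated RNA-seq libraries were compared with those of 5 other untreated T-ALL lines. The 4 DND-41 libraries were taken by their labels, out of 40 libraries in the series, and set against the mean of the line means of LOUCY, KARPAS-45, HPB-ALL, TALL-1 and ALL-SIL, with 4 libraries each. All 6 lines are labelled as T lymphocytes. DND-41, LOUCY, TALL-1 and ALL-SIL were grown with 10% fetal calf serum, and HPB-ALL and KARPAS-45 with 20%. The series was made to study the RNA-binding protein QKI, and its other 16 libraries are Jurkat cells and cells labelled HPB-ALL with QKI or control RNA interference.

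T-ALL lines are held at different steps of thymic development. A thymocyte first rearranges its T-cell receptor genes with the RAG1 and RAG2 recombinase, tests the new beta chain in a pre-T receptor, passes a cortical stage marked by CD1 proteins and the coreceptors CD4 and CD8, and then loses both RAG and CD1. Notch and interleukin-7 receptor signals drive these steps, and homeobox transcription factors such as TLX1 and TLX3 are switched on by translocation in a share of T-ALL.

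The DND-41 libraries held 44.1 to 53.4 M counts and the other 20 libraries 45.1 to 84.0 M. Levels are CPM, counts scaled to the size of each library with TMM factors. Where a gene had no counts, 3 counts per library served as its upper limit, 0.0513 to 0.0605 CPM in DND-41, which covers counting error only. In ratios between lines, any line mean under this limit, the floor, was set to it, also where a few counts were read. Nothing says that replicates of a line came from separate cultures, so the p-values speak of the spread among these libraries, which may be technical, and each group is a single cell line. In bulk RNA, fewer cells with a transcript and less of it per cell cannot be told apart. Serum differed in step with 2 of the other lines, and its part in the results was not tested. DND-41 replicate 4 stood apart from the other 3 DND-41 libraries: 87 of 9317 genes with at least 10 CPM in DND-41 differed 2-fold or more between it and the mean of the others, against 31, 3 and 1 for replicates 1, 2 and 3. The median coefficient of variation over those genes was 9.79%. The 8 knockdown libraries labelled HPB-ALL were not used as a second source for that line, since they differed from the untreated one: CD1B had at most 0.0166 CPM in them and 692 CPM in untreated HPB-ALL. CD3E, CD3D and CD7, defining T-lineage genes, averaged 1039, 634 and 938 CPM in DND-41. Of the other T-lineage genes checked, CD5, CD4, CD8A and TCF7 were lower than in most other lines, as given below. The 17 listed myeloid genes summed to at most 0.876 CPM in any DND-41 library. Other lists summed to more: B-cell markers 2074 to 2342 CPM, and fibroblast and epithelial markers 349.2 to 576.9. Erythroid and megakaryocyte markers summed to 291.7 to 449.9 CPM and NK-cell markers to 73.36 to 110.0.

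Of 20348 genes tested, 6990 (34.4%) were higher and 4749 (23.3%) lower in DND-41 than in the mean of the other lines, 57.7% in all (edgeR, adjusted p under 0.05). With that many calls, the stricter reading was a gene that differed in the same direction from each of the 5 other lines, called apart below. DND-41 had 899 genes apart and higher (4.42%) and 638 apart and lower (3.14%), 7.55% together. All 4 DND-41 libraries lay above all 20 others for 770 genes (3.78%) and below them for 479 (2.35%). Counted the same way, DND-41 had the fewest genes apart of the 6 lines, and KARPAS-45 the most, 3412 higher and 2933 lower. ALL-SIL differed from DND-41 at the fewest genes (51.9%; 27.2% higher and 24.8% lower in DND-41), followed by TALL-1 (53.6%; 27.4% and 26.2%) and HPB-ALL (55.8%; 26.2% and 29.6%). LOUCY differed at 65.9% (32.6% and 33.3%) and KARPAS-45 at 74.3% (38.4% and 35.9%). Across genes, which are not independent replicates, line means of DND-41 ranked most like those of ALL-SIL (Spearman rho 0.895) and TALL-1 (0.886) and least like those of KARPAS-45 (0.821).

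**Figure D1:**
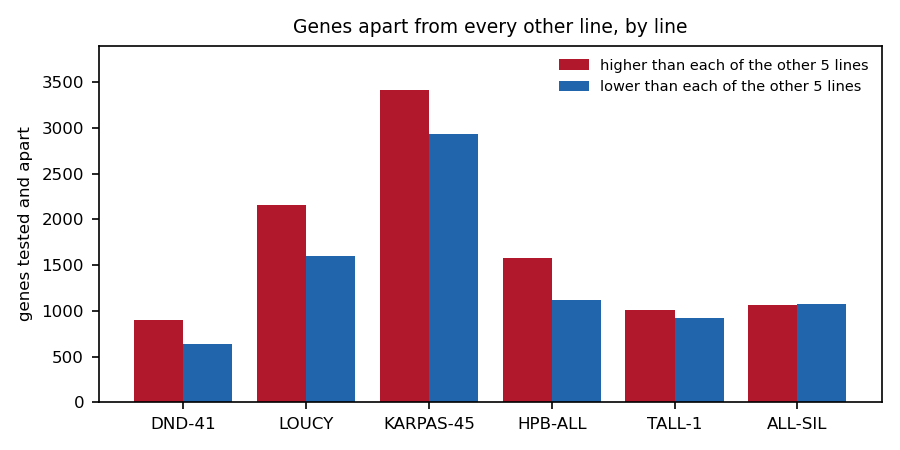
Number of genes, of 20348 tested, that were higher (red) or lower (blue) in 1 line than in each of the other 5 lines (edgeR, 5 pairwise adjusted p under 0.05). DND-41 had 899 higher and 638 lower, the fewest of the 6 lines.

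The genes with the largest ratio of DND-41 to the next line had next to no counts in the other lines. MC5R (GRCh38 chromosome 18, 13824149 to 13827323, + strand), a melanocortin receptor coupled to G proteins, stood at 108.3, 153.1, 113.7 and 72.4 CPM in DND-41 replicates 1 to 4. It had 23849 counts in DND-41 against 14 in the other 20 libraries together. ZNF677 (chromosome 19, 53235381 to 53254898, - strand), a KRAB zinc finger gene, stood at 35.3, 36.6, 34.4 and 40.6 CPM, 7790 counts against 1. All 4 DND-41 libraries lay far above every other library for both genes, and the 2 genes differed from the mean of the other lines with adjusted p = 2.3e-22 and 2.4e-15 (edgeR).

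Promoters are shown for these 2 genes and for RIN3 and FNIP2, the 2 genes with the largest ratio of the next line to DND-41, since the 4 loci mark the extremes of the comparison. Each runs from 250 bases before to 50 after the RefSeq gene start on GRCh38.p14, 5′ to 3′ on the gene's strand, and capitals mark the dinucleotide CG, the site of DNA methylation, which reads the same on both strands. The regions are chr18:13823899-13824198 (+) for MC5R, chr19:53254774-53255073 (-) for ZNF677, chr14:92513531-92513830 (+) for RIN3 and chr4:158768776-158769075 (+) for FNIP2.
MC5R: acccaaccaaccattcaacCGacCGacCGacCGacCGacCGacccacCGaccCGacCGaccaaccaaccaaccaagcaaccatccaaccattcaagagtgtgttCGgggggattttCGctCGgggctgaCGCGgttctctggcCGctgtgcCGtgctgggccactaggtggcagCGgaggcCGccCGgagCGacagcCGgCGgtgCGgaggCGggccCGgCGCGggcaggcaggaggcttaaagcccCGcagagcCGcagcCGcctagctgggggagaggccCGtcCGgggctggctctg
ZNF677: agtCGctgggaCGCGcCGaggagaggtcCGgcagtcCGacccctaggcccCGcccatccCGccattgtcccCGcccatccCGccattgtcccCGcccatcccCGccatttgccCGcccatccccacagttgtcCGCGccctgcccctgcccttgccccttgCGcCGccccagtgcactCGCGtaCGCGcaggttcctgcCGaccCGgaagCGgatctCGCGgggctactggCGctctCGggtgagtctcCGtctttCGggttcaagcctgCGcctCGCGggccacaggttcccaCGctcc
RIN3: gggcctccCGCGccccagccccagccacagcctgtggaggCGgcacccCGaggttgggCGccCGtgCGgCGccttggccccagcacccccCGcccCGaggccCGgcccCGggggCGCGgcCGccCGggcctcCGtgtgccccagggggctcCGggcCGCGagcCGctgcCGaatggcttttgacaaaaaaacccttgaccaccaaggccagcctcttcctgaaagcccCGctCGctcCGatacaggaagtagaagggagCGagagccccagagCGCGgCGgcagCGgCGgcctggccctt
FNIP2: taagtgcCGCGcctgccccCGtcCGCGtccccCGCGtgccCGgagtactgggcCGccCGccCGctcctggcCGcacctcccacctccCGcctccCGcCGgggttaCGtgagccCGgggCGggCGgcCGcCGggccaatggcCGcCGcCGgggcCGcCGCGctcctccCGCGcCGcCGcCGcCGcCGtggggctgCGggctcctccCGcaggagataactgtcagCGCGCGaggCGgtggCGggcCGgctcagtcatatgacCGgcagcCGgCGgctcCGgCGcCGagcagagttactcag
MC5R held 32 CG, ZNF677 34, RIN3 31 and FNIP2 48 in 300 bases, more than 81.4%, 84.7%, 79.6% and 98.1% of the 27305 RefSeq promoters, whose median was 14. At least 10 CG stood in 56.0% of all those promoters and in 83.5% of the 12453 matched promoters of tested genes. In the 12 genes highest and the 12 lowest in DND-41, named next, the medians were 22.0 CG (11 matched) and 27.5 CG (10 matched), against 25 for tested genes. Methylation itself was not measured.

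The 12 protein-coding genes with the largest ratio to the next line, among 289 that were apart, at or above 5 CPM and above all other libraries, were MC5R, ZNF677, FOXB1, HOXD13, ZNF727, MTUS2, FXYD6, C2CD4B, DLEU7, SIM2, SPEF2 and GNAL. HOXD13, the last gene of the HOXD cluster and a regulator of limb patterning, stood at 33.4, 27.4, 24.6 and 16.8 CPM, with 5409 counts in DND-41 and 1 in the other lines. FOXB1, a forkhead transcription factor of the developing brain, stood at 20.9, 27.5, 30.3 and 33.4 CPM, with 5981 counts against 24. SIM2, a transcription factor of neural development, held 10.3 to 11.5 CPM in DND-41, 2328 counts against 4. These 3 transcription factor genes, known from the development of other tissues, were read in all 4 DND-41 libraries. FXYD6, a regulator of the sodium pump, averaged 92.9 ± 9.79 CPM (SD, n = 4), 325-fold over LOUCY, the next line. MTUS2 averaged 54.8 ± 3.86 CPM, 362-fold over KARPAS-45, and GNAL, a stimulatory G protein alpha subunit, 24.6 ± 6.24 CPM, 136-fold over ALL-SIL. ZNF727 (21.9 CPM), C2CD4B (17.9), DLEU7 (13.9) and SPEF2 (10.1) had at most 53 counts each in the other 20 libraries together. In Jurkat, normalized in a separate table, 10 of the 12 lay below every DND-41 library in all 8 libraries. HOXD13 (25.6 to 68.0 CPM) and FOXB1 (10.3 to 21.1 CPM) did not.

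**Figure D2:**
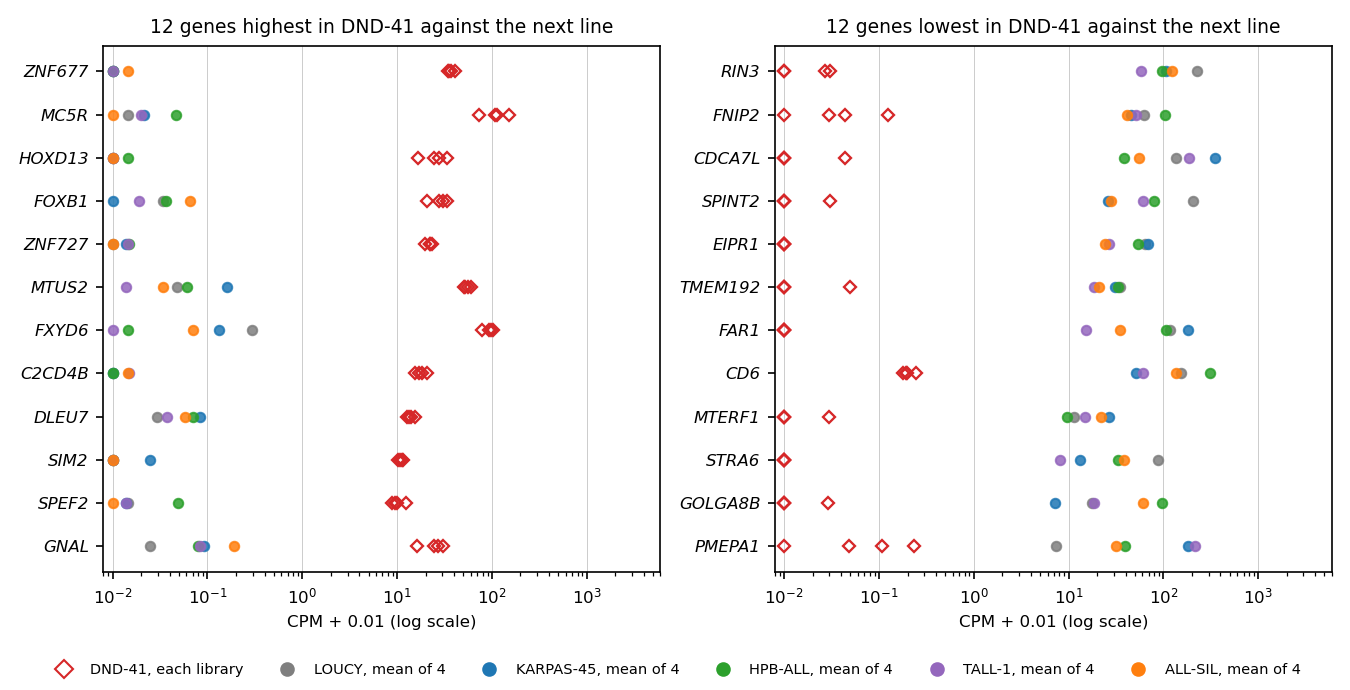
CPM plus 0.01 on a log axis for the 12 genes highest (left) and the 12 lowest (right) in DND-41 relative to the next line. Diamonds are the 4 DND-41 libraries and circles the means of 4 libraries of each other line; the diamonds lie to the right of all circles on the left and to the left of all circles on the right.

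The mirror set, 12 of 264 genes that every other line expressed at 5 CPM or more, comprised RIN3, FNIP2, CDCA7L, SPINT2, EIPR1, TMEM192, FAR1, CD6, MTERF1, STRA6, GOLGA8B and PMEPA1. RIN3, a guanine nucleotide exchange factor for small Rab GTPases of endosomes, had 1 count or none in each DND-41 library and 58.2 CPM in TALL-1, the lowest of the other lines. FNIP2, a folliculin-interacting protein of nutrient sensing, had 0, 0.113, 0.0342 and 0.0195 CPM in DND-41 and at least 36.9 CPM in every other library. EIPR1, FAR1 and STRA6 had 0 counts in all 4 DND-41 libraries. FAR1 makes fatty alcohols for ether lipids, STRA6 is a receptor for retinol-binding protein, and EIPR1 acts in vesicle trafficking. Set against the floor they were at least 268-fold (FAR1), 142-fold (STRA6) and 428.7-fold (EIPR1) lower than in the next line. CDCA7L, SPINT2, TMEM192, MTERF1 and GOLGA8B had 1 or 2 counts in all of DND-41, with GOLGA8B uncertain because it has near-identical copies. PMEPA1, a target and inhibitor of TGF-beta signalling, had 20 counts in DND-41 and 7.29 CPM in LOUCY, the next line. In Jurkat all 12 lay above every DND-41 library. In the 8 libraries labelled HPB-ALL 1 gene of each set went the other way, CD6 (0.0161 to 0.063 CPM, below DND-41) and DLEU7 (27.1 to 35.9 CPM, above DND-41).

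Most genes around both sets were not apart. Of the 72 nearest expressed genes, 3 on each side of each of the 12 highest genes, 8 were apart and higher as well and 59 were read at 1 CPM or more in DND-41. Around the 12 lowest genes, 6 of 72 were apart and lower and 53 reached 1 CPM. Among all located expressed genes the shares apart were 4.36% higher and 3.78% lower, both smaller than among these neighbours. Some neighbours were shared by a pair of genes and counted for each, such as RORA-AS1 for FOXB1 and C2CD4B. None of the 6 genes around MC5R was apart. RNMT, the messenger RNA cap methyltransferase, had 85.8 CPM in DND-41 against a median line mean of 81.5, and LDLRAD4 162 against 171, while the pseudogenes ANKRD20A5P (11.8 against 0.79) and RHOT1P1 (6.90 against 0.44) had higher levels. Around EIPR1, TRAPPC12 had 36.6 CPM against 37.8 on one side, and MYT1L 0.0144 against 22.4 on the other, where it was not apart. ZNF818P, a neighbour of ZNF677, was apart and higher at 5.18 CPM against at most 3.37 CPM in another line (ALL-SIL).

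In places 3 or more adjacent expressed genes were all apart in the same direction. There were 21 such runs of higher genes, with 77 members, and 8 of lower genes, with 33. Of 15490 located expressed genes, 4.36% were apart and higher and 3.78% apart and lower. How many runs these shares alone would give was not tested. Several runs held members of a single gene family or receptor locus, such as the TRBJ1 segments with TRBC1, which are not independent. On chromosome 5 SPEF2, IL7R and CAPSL (35617844 to 35938779) were all apart and higher. On chromosome 9 CDKN2A, CDKN2B-AS1 and CDKN2B (21967753 to 22121097) were. On chromosome 1 GBP2, GBP4, GBP5 and 1 unnamed gene between them (89106132 to 89272804) formed such a run, and on chromosome 11 DSCAML1, FXYD2 and FXYD6 did. On chromosome 14, 8 immunoglobulin heavy chain variable segments (106356145 to 106397114) were apart and higher, among them IGHV4-34 at 24.1 to 30.0 CPM, although such segments resemble each other. On chromosome 6 FKBP5, ARMC12, SRPK1 and MAPK14 (35573585 to 36111236) were all apart and lower. CD6 and CD5, close together on chromosome 11 (60971680 to 61127852), were both apart and lower. Several of these genes overlap a gene on the opposite strand (CDKN2A and CDKN2B with CDKN2B-AS1, RAG1 with RAG2, DLEU7 with DLEU1, TRDC with TRD-AS1), and the strand setting of the counting is not given, so reads of such pairs cannot be told apart.

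Both recombinase genes were far higher in DND-41 than in any other line. RAG1 (chromosome 11, 36510709 to 36593156, + strand), which cuts the receptor loci together with RAG2, stood at 758.5, 664.3, 744.7 and 833.7 CPM. Every other library had 73.7 CPM or less, and the mean was 13.8-fold that of HPB-ALL, the next line (log2 fold change against the mean of the other lines 7.53, SE 0.15, edgeR adjusted p = 9.88e-23). RAG2 stood at 138.3, 118.8, 144.7 and 105.8 CPM and was 6.35-fold over HPB-ALL. Both were apart and above all other libraries. DNTT, the polymerase that adds random bases at the joints, averaged 51.6 ± 18.5 CPM, below HPB-ALL (78.3) and TALL-1 (263.9) and above the other 3 lines. PTCRA, the alpha chain of the pre-T receptor, had 0.0881 CPM in DND-41 and 46.8 to 104 CPM in KARPAS-45, HPB-ALL and TALL-1, with LOUCY as low as DND-41.

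The repair genes that join the cut ends did not share the level of RAG1. Of 16 genes of recombination and the pre-T receptor, 6 were higher and 5 lower than the mean of the other lines, against 34.4% and 23.3% of all genes, with RAG1 and RAG2 as the members apart. XRCC5 and XRCC6, the subunits of Ku, averaged 188 and 224 CPM and were lower (log2 fold changes -1.10 and -0.98), as was LIG4 (-0.66), while XRCC4 was higher (0.68). POLL was higher at 29.9 CPM, beside 26.2 in ALL-SIL and 0.155 to 0.632 in KARPAS-45, HPB-ALL and TALL-1, and PAXX was called higher at 42.9 CPM, beside 0 counts in HPB-ALL, without which its direction turned (log2 fold change -0.27). DCLRE1C (36.1 CPM), NHEJ1 (6.29), POLM (59.1), HMGB1 (912) and HMGB2 (650.5) did not pass the test.

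CD1 proteins present lipids and mark cortical thymocytes, and DND-41 shared a high level of CD1B with HPB-ALL. CD1B stood at 595.7, 633.1, 706.6 and 669.9 CPM in DND-41. HPB-ALL averaged 692 CPM and the other 4 lines at most 9.54, so DND-41 and HPB-ALL overlapped and both lay above the rest. CD1E averaged 59.1 ± 4.04 CPM against 1134 in HPB-ALL and 0 to 10.5 elsewhere. CD1A (37.3 CPM) lay below HPB-ALL (349.8), TALL-1 (83.6) and KARPAS-45 (40.2). CD1D (13.7 CPM) was near KARPAS-45 (13.0) and TALL-1 (13.2), and CD1C (1.03 CPM) was low. In the contrast with the mean, 4 of the 5 were higher and CD1C lower (34.4% and 23.3% of all genes), and none of the 5 was apart. The call on CD1A was lost without ALL-SIL (adjusted p = 0.0712) and its direction turned without LOUCY (log2 fold change -0.53), that of CD1C was lost without HPB-ALL (adjusted p = 0.116) and that of CD1D without LOUCY (adjusted p = 0.547).

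**Figure D3:**
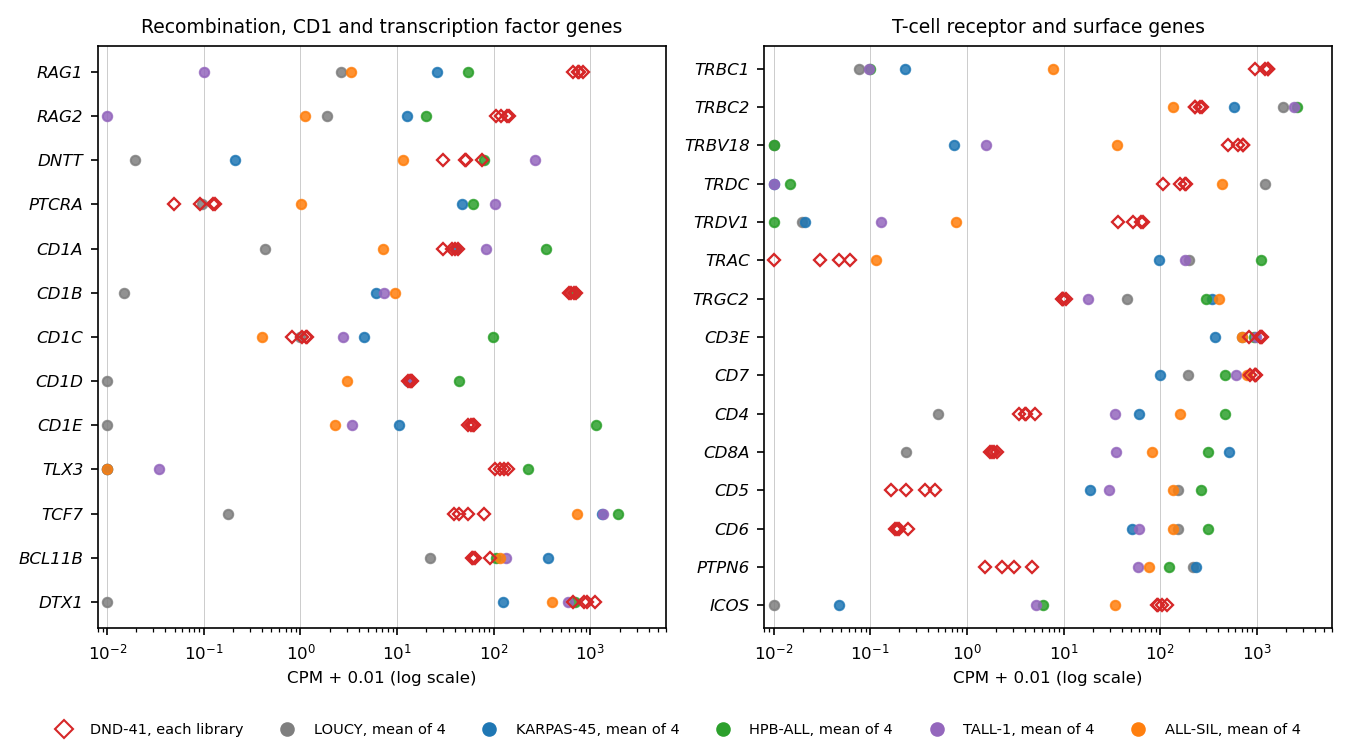
CPM plus 0.01 on a log axis for genes of receptor recombination, CD1 proteins and transcription factors (left) and for T-cell receptor and surface genes (right). Diamonds are the 4 DND-41 libraries and circles the means of 4 libraries of each other line; RAG1 and TRBC1 of DND-41 lie to the right of every circle, CD5, CD6 and PTPN6 to the left.

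DND-41 was high for the beta variable segments TRBV18 and TRBV6-2 and low for the alpha constant gene. TRBV18, a variable segment of the beta chain, stood at 501.6, 645.3, 713.9 and 721.4 CPM, 17.9-fold over ALL-SIL and above every other library. TRBV6-2 stood at 38.8, 34.8, 36.5 and 31.0 CPM against line means of at most 0.0483 elsewhere, and was apart and higher; it resembles other TRBV6 segments. TRBC1, the first beta constant gene, averaged 1193 ± 162 CPM against at most 8.67 in any other library, while TRBC2 averaged 247 ± 23.8 between ALL-SIL (136) and the other 4 lines (585 to 2590). The 2 constant genes are near-identical, so the split of reads between them is uncertain. The joining segments TRBJ1-2 to TRBJ1-6 were read in DND-41 and had 0 counts in all 20 other libraries; TRBJ1-6 averaged 17.9 CPM, at least 304-fold over the floor. TRDV1, a delta variable segment, stood at 52.6, 66.3, 63.7 and 36.9 CPM against at most 1.03 elsewhere. TRDC, the delta constant gene, averaged 158 CPM, below LOUCY (1224) and ALL-SIL (440.3), with next to no counts in the other 3 lines. TRAC, the alpha constant gene, had 6 counts in all of DND-41 and 97.7 to 1109 CPM in LOUCY, KARPAS-45, HPB-ALL and TALL-1; ALL-SIL was low as well, at 0.104 CPM. The highest alpha variable segment was TRAV30, at 3.43 CPM. TRGC2, a gamma constant gene, was apart and lower at 9.95 ± 0.381 CPM, though not apart without TALL-1 replicate 3, and the highest gamma variable segment was TRGV3, at 3.53 CPM.

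The CD3 chains that carry the receptor were read at a high level in DND-41, and several signalling genes behind it were low. CD3D, CD3E and CD3G were higher than the mean of the other lines (log2 fold changes 1.17, 0.57 and 0.63), and CD247, the zeta chain, did not pass the test (0.19, adjusted p = 0.147). Of the 25 genes of the CD3 complex and proximal signalling, 6 were higher and 12 lower (34.4% and 23.3% of all genes), and 6 were apart and lower (3.14%). PTPN6, the phosphatase SHP-1 that damps receptor signals, had 1.53, 2.28, 3.06 and 4.77 CPM, 20.1-fold below TALL-1, the next line, and below all other libraries. LCK, the kinase that starts the signal, averaged 169.9 ± 27.5 CPM and was apart and lower, 1.31-fold under LOUCY. It was not apart without LOUCY replicate a, b or 3, or without DND-41 replicate 1 or 4. TXK, a kinase of the TEC family, had 1 count in DND-41, and SH2D2A, an adapter of activated T cells, averaged 2.79 CPM against 8.44 in ALL-SIL, the next line.

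Among 24 tested surface antigens and coreceptors, 12 were higher and 11 lower (34.4% and 23.3% of all genes), 3 were apart and higher and 6 apart and lower (4.42% and 3.14%). CD5, which tunes receptor signals, had 0.363, 0.453, 0.222 and 0.156 CPM, and its neighbour CD6 0.182, 0.170, 0.188 and 0.234. KARPAS-45, the next line for both, averaged 18.9 and 51.2 CPM, so DND-41 was 63.3-fold and 265-fold lower. CD4 averaged 4.15 CPM and CD8A 1.87, above LOUCY (0.491 and 0.224) and below the other 4 lines (33.9 to 473 and 35.3 to 521). CD8B averaged 1.15 CPM, and its call (adjusted p = 0.0157) was lost without LOUCY replicate a, with the replicate block, without KARPAS-45 and without HPB-ALL (adjusted p = 0.548 to 1). ICOS, a costimulatory receptor, stood at 103.7, 117.9, 92.0 and 95.3 CPM, 2.99-fold over ALL-SIL. CD7 averaged 938 CPM and was higher than the mean of the other lines (log2 fold change 1.48), though it was not apart.

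T-lineage transcription factors were mostly lower in DND-41: 19 of 30 were lower, 6 higher and 4 apart and lower (23.3%, 34.4% and 3.14% of all genes), with a median log2 difference of -0.65 against -0.015 for all genes. Here and for the lists that follow the median uses levels under the floor set to it, and list members are not replicates. TCF7, the factor TCF-1 that opens the T-cell program, stood at 38.4, 44.0, 54.5 and 79.2 CPM. The other lines except LOUCY (0.169) averaged 720 to 1944 CPM. ETS1 (176 CPM), TCF3 (229), NFATC1 (31.5) and IKZF3 (0.523) were apart and lower, with log2 fold changes of -1.03, -0.93, -0.99 and -4.92; single libraries of other lines overlapped DND-41 for NFATC1 and IKZF3. NFATC1 was not apart without HPB-ALL replicate 4, nor IKZF3 without DND-41 replicate 1 or 3 or TALL-1 replicate 1, 2 or 3. BCL11B, which holds T-cell identity, averaged 68.8 CPM and was lower than the mean of the other lines (log2 fold change -0.62, adjusted p = 0.0015), a call lost without KARPAS-45 (-0.16, adjusted p = 0.442).

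TLX3, a homeobox oncogene of T-ALL, was read in DND-41 and HPB-ALL. It stood at 115.3, 102.2, 126.8 and 141.8 CPM, with 224.5 CPM in HPB-ALL and at most 0.0243 in the other 4 line means. Of 24 listed T-ALL transcription factors, 13 had 0 counts in DND-41, among them TLX1, TAL1, LMO1, LMO2, NKX2-1, HOXA9, HOXA10 and MEF2C. In ALL-SIL 13 had 0 counts as well, in TALL-1 11, in KARPAS-45 8, in HPB-ALL 5 and in LOUCY 4. HHEX (4.57 CPM), ZEB2 (5.49) and HOXA13 (1.88) lay between LOUCY (174.6, 47.0 and 29.7) and the other lines. LYL1 (2.07 CPM) and MYB (336) were lower than the mean of the other lines and ETV6 (62.9) higher. The direction for LYL1 turned without LOUCY (log2 fold change 0.34), and the call on MYB was lost without LOUCY, without DND-41 replicate 1 and without replicate 4 (adjusted p = 0.051 to 0.067).

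HOX cluster genes summed to 51.7 to 69.7 CPM in DND-41, far below LOUCY (931 to 1308) and above the libraries of the other 4 lines, of which TALL-1 was highest (28.7 to 40.1). Of 43 listed HOX cluster genes 21 had 0 counts in DND-41, against 7 in LOUCY and 23 to 35 in the other 4 lines. In DND-41, 7 averaged 1 CPM or more: HOXD13, HOXA7 (20.9 CPM), HOXA5 (4.73), HOXD12 (2.89), HOXA6 (2.78), HOXA3 (2.55) and HOXA13. Of the 30 tested, 13 were higher and 0 lower in the contrast with the mean (edgeR), against 34.4% and 23.3% of all genes, and HOXD13 was the member apart; the median log2 difference was -1.05, of opposite sign. HOXA7 lay below LOUCY (39.3 CPM) and above ALL-SIL (6.25) and was apart and higher once LOUCY was left out, and HOXA3, HOXA5 and HOXA6, which overlap on the same strand, were near ALL-SIL and HPB-ALL. HOXD12, next to HOXD13, was 1.29-fold over HPB-ALL and overlapped it.

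Of 32 tested genes of the Notch pathway, 19 were higher and 5 lower (34.4% and 23.3% of all genes), 6 were apart and higher and 1 apart and lower (4.42% and 3.14%), with a median log2 difference of 0.48. The lower one was RBPJ (50.6 CPM), the DNA-binding partner of Notch. RBPJ was not apart without DND-41 replicate 1, 2 or 4 or ALL-SIL replicate 1, 2 or 3. The 34 listed genes summed to 4033 to 5490 CPM in DND-41, overlapping KARPAS-45 (4598 to 5037), HPB-ALL (3848 to 4607) and TALL-1 (3375 to 4496). This sum lay above ALL-SIL (2728 to 3764) and far above LOUCY (896 to 1096). DTX1, a direct Notch target and ubiquitin ligase, stood at 657.4, 849.0, 911.3 and 1125 CPM; replicate 1 overlapped HPB-ALL (mean 685), the next line, and the gene was not apart without replicate 4. DLL1, a Notch ligand, averaged 8.15 ± 1.56 CPM, 4.71-fold over TALL-1, and GIMAP5, a GTPase of lymphocyte survival, 11.3 ± 0.546 CPM, 2.87-fold over ALL-SIL. NOTCH1 averaged 435 CPM, between TALL-1 (309) and HPB-ALL (637), and did not pass the test. NOTCH3 stood at 199.3, 315.3, 344.4 and 592.8 CPM, and was called higher beside 0.158 CPM in LOUCY, without which its direction turned (log2 fold change -0.44). NRARP, a feedback target of Notch, had 0 counts in DND-41 and in LOUCY, and 20.9 and 62.3 CPM in TALL-1 and KARPAS-45.

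The interleukin-7 receptor gene was higher in DND-41 than in every other line. IL7R (chromosome 5, 35852695 to 35879603, + strand) stood at 644.4, 662.4, 693.0 and 555.1 CPM, all above the highest other library (368.1, HPB-ALL), and was 2.08-fold over HPB-ALL (log2 fold change against the mean of the other lines 6.75, SE 0.18, edgeR adjusted p = 2.92e-20). CISH, a feedback inhibitor induced by STAT5, stood at 1022, 1057, 1049 and 731.5 CPM. ALL-SIL averaged 723 CPM and overlapped replicate 4, and the other 4 lines averaged at most 4.67. CISH was not apart without DND-41 replicate 1, 2 or 3 or ALL-SIL replicate 1, 2 or 3. PIM1, a serine kinase and STAT5 target, averaged 855 ± 213 CPM, 2.06-fold over ALL-SIL and above all other libraries. SOCS1 and SOCS2, inhibitors of the same pathway, averaged 189 and 317.5 CPM and were shared with ALL-SIL (171 and 234). IL4R was apart and higher at 84.5 ± 14.0 CPM. Of 29 tested genes of IL7R, JAK and STAT signalling, 14 were higher and 8 lower (34.4% and 23.3% of all genes), and 4 were apart and higher and 2 apart and lower (4.42% and 3.14%). The members apart and lower were IL2RB (4.88 CPM), a chain of the interleukin-2 and interleukin-15 receptors, and STAT3 (47.7), a transcription factor of cytokine signalling. STAT5A had 2127 counts in the 4 DND-41 libraries and 122707 in the other 20 together, and JAK3 4558 and 59082. For STAT5B the counts were 31847 and 272284, and for JAK1 23693 and 173962. Activity of the pathway was not tested.

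**Figure D4:**
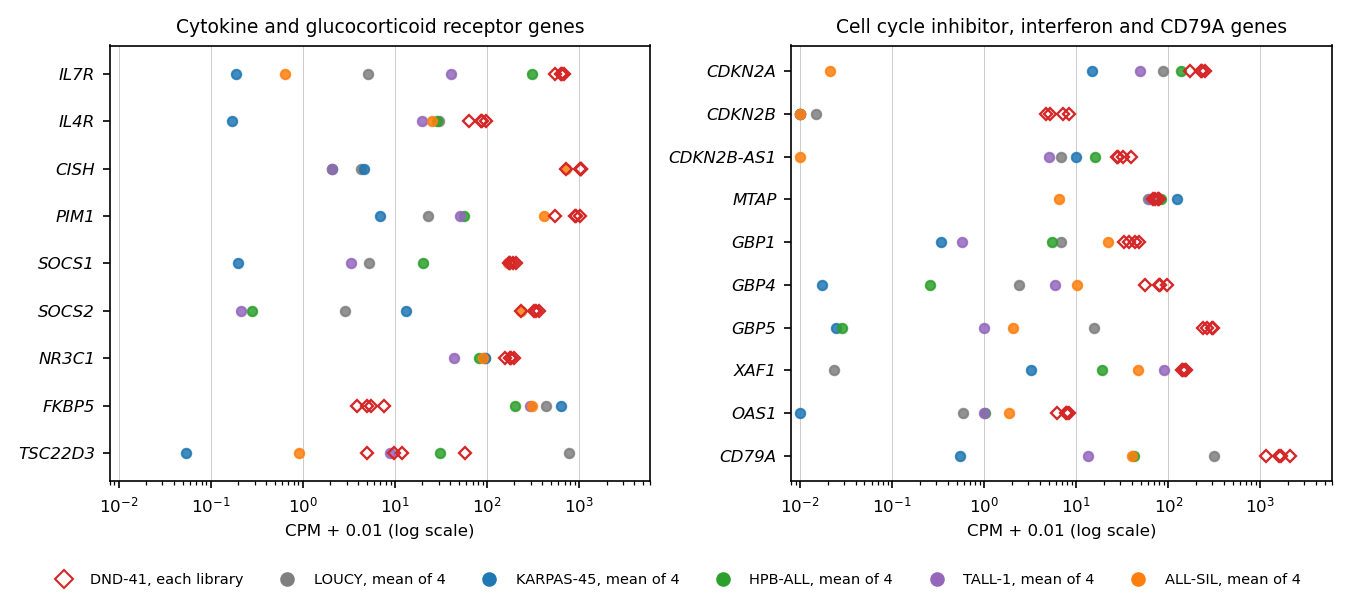
CPM plus 0.01 on a log axis for cytokine and glucocorticoid receptor genes (left) and for cell cycle inhibitor, interferon response and CD79A genes (right). Diamonds are the 4 DND-41 libraries and circles the means of 4 libraries of each other line; CISH, SOCS1 and SOCS2 of DND-41 lie beside ALL-SIL, and FKBP5 of DND-41 lies to the left of every circle.

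The glucocorticoid receptor and its best known target stood at opposite ends. NR3C1, the receptor through which glucocorticoids kill leukaemic lymphoblasts, stood at 159.4, 181.0, 198.5 and 182.1 CPM, above all other libraries and 1.86-fold over LOUCY. FKBP5, a chaperone partner induced by the receptor, stood at 3.85, 5.00, 5.57 and 7.69 CPM, below all other libraries and 36.2-fold under HPB-ALL (log2 fold change -5.98, SE 0.20, edgeR adjusted p = 2.48e-18). Its neighbours ARMC12 (0.00973 CPM), SRPK1 (87.0) and MAPK14 (69.7) were apart and lower as well, the last 2 by 1.60-fold and 1.27-fold against the next line; MAPK14 was not apart without DND-41 replicate 1 or 4 or HPB-ALL replicate 2 or 3. TSC22D3, another gene induced by glucocorticoids, stood at 4.98, 9.86, 11.9 and 57.9 CPM, and its call (adjusted p = 0.00778) was lost without replicate 4 (adjusted p = 0.453), without KARPAS-45 (1) and without ALL-SIL (0.127). Of 18 genes of the receptor and its response, 7 were higher and 8 lower, against 34.4% and 23.3% of all genes, and without replicate 4 the lower count was 5.

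At the locus of the cell cycle inhibitors p16 and p15, often deleted in T-ALL, CDKN2A was read at a high level and CDKN2B at a low one. CDKN2A stood at 247.3, 231.5, 228.0 and 174.0 CPM, 1.59-fold over HPB-ALL, whose highest library (200.2) overlapped replicate 4. CDKN2B stood at 5.18, 8.25, 7.25 and 4.63 CPM, with at most 1 count in any other library. CDKN2B-AS1, the antisense RNA of the locus, averaged 31.7 CPM, 1.99-fold over HPB-ALL. ALL-SIL had 0.0109 CPM of CDKN2A and 0 counts of CDKN2B and CDKN2B-AS1. MTAP, the next gene, averaged 73.4 CPM, within the range of the other lines except ALL-SIL (6.51).

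Many genes of proliferation were lower in DND-41 than in the mean of the other lines, a mean that includes a far higher KARPAS-45. Summed S phase genes ran from 4434 to 5167 CPM in DND-41 and from 14070 to 15090 in KARPAS-45, and DND-41 overlapped LOUCY, HPB-ALL and ALL-SIL. Summed G2 and mitosis genes ran from 3973 to 4856 CPM in DND-41 and from 10150 to 10770 in KARPAS-45, and DND-41 overlapped the other 4 lines. Of 42 S phase genes 26 were lower and 2 higher, with a median log2 difference of -0.42, and of 40 G2 and mitosis genes 19 were lower and 2 higher, with a median of -0.37. Among all genes 23.3% were lower and 34.4% higher. BLM, a DNA helicase of replication forks, was apart and lower at 34.5 ± 4.82 CPM, and RFC2, a subunit of the clamp loader, was apart and higher at 140 ± 14.7 CPM. Of the G2 and mitosis genes 0 were apart from every other line by edgeR.

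Many interferon response genes were higher in DND-41 than in the mean of the other lines. Their summed level, 1435 to 1645 CPM in DND-41, overlapped ALL-SIL (1545 to 2092) and LOUCY (1208 to 1514) and lay above the other 3 lines (587 to 788). Of 33 tested, 26 were higher and 0 lower (edgeR), against 34.4% and 23.3% of all genes. Apart and higher were 9, against 4.42% of all genes, and the median log2 difference was 1.76 against -0.015 for all genes. XAF1, a pro-apoptotic interferon target, averaged 148 ± 5.77 CPM, 1.66-fold over TALL-1. IFIT5, which binds foreign RNA, averaged 41.9 ± 10.7 CPM, 2.23-fold over ALL-SIL. OAS1, a sensor of double-stranded RNA, averaged 7.54 ± 0.973 CPM, 4.09-fold over ALL-SIL. GBP1, a guanylate-binding GTPase, averaged 40.3 ± 6.50 CPM. Its relatives GBP4 (77.8 ± 16.7) and GBP5 (275 ± 31.0) lay 7.57-fold over ALL-SIL and 17.8-fold over LOUCY and were named after their values were seen. GBP genes resemble each other, so the split of reads among them is uncertain. CXCL10, a secreted interferon target, had 0 counts in DND-41. Without replicate 4 the count of members higher was again 26 and the count apart was 7. The median log2 fold change was then 1.44, against 1.76 with it.

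**Figure D5:**
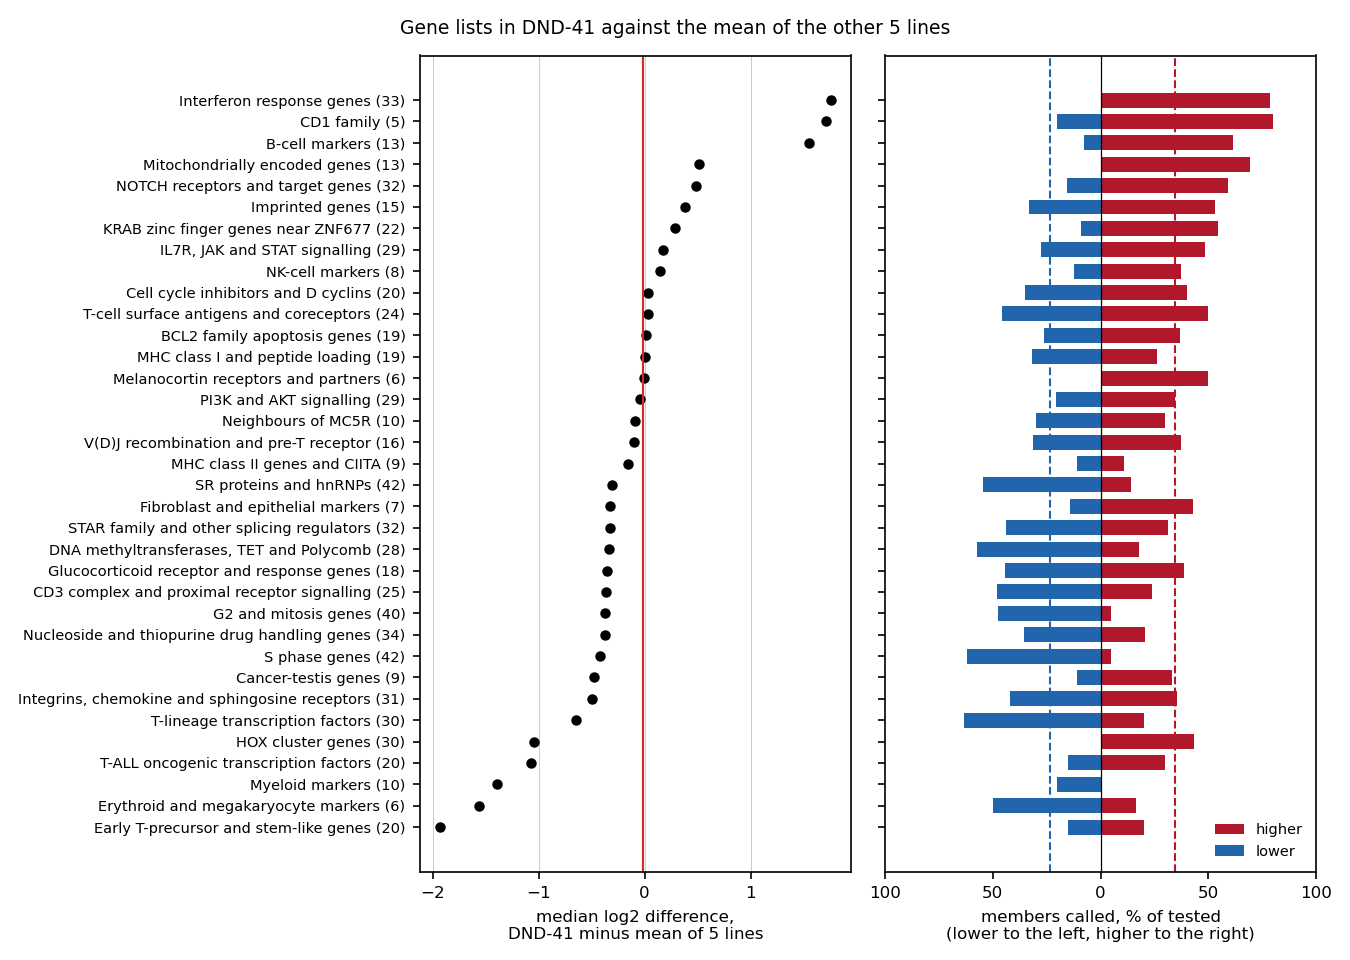
Left, the median log2 difference of DND-41 from the mean of the other 5 lines for each gene list, with levels under the floor set to it, the number of tested members in brackets and the median of all 20348 genes as a red line. Right, the percent of tested members called higher (red) and lower (blue), with the percent of all genes as dashed lines; interferon response genes have the highest median (1.76) and no member called lower.

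Splicing and chromatin genes were more often lower than higher in DND-41 against the mean of the other lines, which includes a higher KARPAS-45. Summed SR protein and hnRNP genes ran from 12460 to 13710 CPM in DND-41 and 19950 to 21590 in KARPAS-45. DND-41 overlapped HPB-ALL and LOUCY and lay below TALL-1 and ALL-SIL. Summed DNA methylation and Polycomb genes ran from 2917 to 3256 CPM in DND-41 and 6700 to 7269 in KARPAS-45. There DND-41 overlapped HPB-ALL and lay below the other lines. Of 42 SR proteins, hnRNPs and their kinases 23 were lower and 6 higher, against 23.3% and 34.4% of all genes; SRSF4, CLK3 and SRPK1 were the members apart, SRSF4 narrowly. QKI itself averaged 88.0 ± 5.54 CPM, below TALL-1 (161.6), HPB-ALL (137) and ALL-SIL (130) and above KARPAS-45 (6.71) and LOUCY, with 0 counts. ZFP36L2, which destabilizes messenger RNAs, was apart and higher at 909.7 ± 212 CPM, though not without DND-41 replicate 4 or ALL-SIL replicate 4. Of 28 genes of DNA methylation and Polycomb 16 were lower and 5 higher, against the same shares. DNMT3A, a de novo methyltransferase, averaged 58.9 ± 3.26 CPM, and JARID2, a cofactor of Polycomb complex PRC2, 32.0 ± 0.753; both were apart and lower, as were IDH2 (210.2) and TET3 (68.9). PLAGL1, an imprinted zinc finger gene, had 0 counts in DND-41, and BLCAP, another imprinted gene, was apart and higher at 90.5 ± 3.56 CPM. Of 29 genes of PI3K and AKT signalling, INPP5D, PHLPP1 and PIK3R3 were apart and lower at 71.0, 17.7 and 19.6 CPM; the first 2 oppose the pathway. SRSF4, TET3 and PIK3R3 were each not apart in 10 or more of the fits that left out 1 library, among them those without DND-41 replicate 1, 2 or 3. BIK, a pro-apoptotic BCL2 family gene, averaged 0.0570 CPM against 0.699 or more in the other lines, and BCL2 averaged 391 CPM, level with LOUCY (389). The integrin gene ITGAL (12.4 ± 4.09 CPM), ICAM2 (36.0) and the chemokine receptor gene CXCR3 (0 counts) were apart and lower.

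Some genes of other lineages were read in DND-41, and a part of other cells in these values was not tested. Of 13 tested B-cell markers 8 were higher and 1 lower, against 34.4% and 23.3% of all genes. CD79A, a chain of the B-cell receptor complex, stood at 1155, 1591, 1663 and 2083 CPM, 5.22-fold over LOUCY and above all other libraries, and IGLL1, part of the surrogate light chain, at 811.0, 487.5, 541.6 and 112.9 CPM. MS4A1 and CD22 had 0 counts in DND-41, and PAX5, which defines the B lineage, at most 0.0202 CPM. The summed B-cell list ran from 2074 to 2342 CPM in DND-41 and from 1698 to 2327 in LOUCY, and reached at most 587 in any library of the other 4 lines. PDGFRB, a growth factor receptor of mesenchymal cells, was apart and higher at 27.0 ± 6.62 CPM, while EPCAM, COL3A1, LUM and THY1 had 0 counts. ITGAM, a myeloid integrin, was apart and lower at 0.0941 CPM. MAEL, a germ-cell gene, was apart and higher at 2.89 CPM, and TEX14, another, had 1 count in DND-41. HLA-DRB1 was apart and higher at 0.521 ± 0.147 CPM, a low level, and it resembles other class II genes. Of 13 mitochondrially encoded genes 9 were higher and 0 lower (edgeR), against 34.4% and 23.3% of all genes, with a median log2 difference of 0.51 and none apart. They summed to 47300 to 55430 CPM in DND-41, overlapping LOUCY (48160 to 67070) and TALL-1 (43220 to 52950), below ALL-SIL (62470 to 82250) and above HPB-ALL (29140 to 45800) and KARPAS-45 (7438 to 16150). AMPD2 (29.7 CPM) and FPGS (53.6), enzymes of nucleotide and folate handling, were apart and lower, though AMPD2 was not when any 1 DND-41 library was left out.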

How the data were processed

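Read counts per gene, in whole numbers as the authors deposited them, were used for 24 libraries of 6 untreated lines (44.1 to 84.0 M counts per library) and, for single levels, for 8 Jurkat and 8 labelled HPB-ALL libraries from 2 other tables. Per the submitters' processing notes, Trimmomatic 0.39, STAR 2.7.11b and GRCh38 were used. The counting step, its annotation and its strand setting remain not given in the sources used here. Libraries were grouped by their labels. A pair of LOUCY columns carry no replicate number of their own and are called a and b.

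All 6 lines were fitted together with edgeR 4.0.16 in R 4.3.3 (filterByExpr, TMM, quasi-likelihood F test, Benjamini-Hochberg adjustment over 20348 of 62754 genes, threshold 0.05). DND-41 was set against the mean of the other 5 lines on the log scale, so a line at 0 weighs heavily, and against each line alone. SE is the size of the log2 fold change over the square root of F. The fit was tried on simulated data in which a small share of genes differed, and only in DND-41, unlike in these lines. Positions come from GENCODE 29 (19254 tested genes matched) and promoters from RefSeq GRCh38.p14. The members and the 35 gene lists were chosen with earlier results of these data known. Named genes are the 5 markers given for DND-41 (ZNF677, MC5R, HOXD13, RAG1, CD1B), 12 per direction by the ratio to the next line, up to 4 members apart per list, all members at 1 CPM or more of 4 lists, the highest receptor segments and QKI; some of those the rule picks are not reported. CD3D, CD3E, CD3G, CD4, CD7, CD8A, CD8B, CD247, TCF7, BCL11B, PTCRA, TRBC2, TRBJ1-6, SOCS1, SOCS2, STAT5A, STAT5B, JAK1, JAK3, TSC22D3, BCL2, GBP4, GBP5, MTAP, NOTCH1, NOTCH3, NRARP, CAPSL, ARMC12, MAPK14, CDKN2B-AS1, IGLL1, the neighbours, run members and genes at 0 that are named, and TRBV6-2, IL2RB, STAT3, RBPJ, SMAD3, KDM5B, SRGN, IRS2, GSDME and IGHV4-34 were chosen after their values were seen. Alternatives tried were DESeq2 1.42.0, limma-voom (3.58.1), other size factors (RLE), testing without the filter, a test against a fold of 2, the replicate block, separate fits per pair of lines, and leaving out each library and each other line; list counts without DND-41 replicate 4 were added after the data were seen.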

Additional observations from a re-analysis of the deposited data

Results flagged for a closer look

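Among the 4 DND-41 libraries the highest and lowest value was checked for a gap larger than Dixon's 95% limit in 133 named genes above the floor. A gap was found in 4 genes, all through replicate 4. Chance gives about 1 in 20 groups, so the total is no more than chance would give. BCL11B was high in replicate 4 (90.4 CPM; the gap was 0.896 of the whole range), and so was TSC22D3 (57.9 CPM, 0.87). CISH was low there (731.5 CPM, 0.892), as was RFC2 (117.6 CPM, 0.867). Each gap rests on 1 library far from the other 3.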

How the results depend on the processing

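Requiring a fold above 2 (glmTreat) left 2748 genes higher and 1193 lower than the mean of the other lines, and 285 and 212 apart, because it asks for larger differences. Pairwise it left 3084 higher and 3293 lower against LOUCY, 4845 and 3910 against KARPAS-45, 2123 and 2997 against HPB-ALL, 2448 and 1838 against TALL-1, and 2278 and 1809 against ALL-SIL. With 1 line fewer to pass, 1167 genes were apart and lower without HPB-ALL, and 1358 higher and 1005 lower without ALL-SIL. The other counts stayed within 1.5 times. Leaving out each of 24 libraries gave 6653 to 7415 genes higher, 4165 to 4931 lower, 816 to 1011 apart and higher and 535 to 674 apart and lower. Without the filter the median log2 fold change of all genes moved from 0.035 to -0.187. Separate fits per pair of lines called 454 of the 638 genes apart and lower again (71.2%).

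Directions turned without LOUCY for CD1A (log2 fold change -0.53), LYL1 (0.34), TRGV3 (-0.39), CD247 (-0.011), NOTCH1 (-0.44) and NOTCH3 (-0.44), without TALL-1 for CD247 (-0.035), without HPB-ALL for PAXX (-0.27) and POLM (0.16), without ALL-SIL for MTAP (-0.10) and without KARPAS-45 for NHEJ1 (0.089), which also turned without DND-41 replicate 2 (0.053) or replicate 3 (0.008). The cause was not tested.

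The labels do not tie replicate numbers to a shared batch, and not every pair was over 0.1. The 18 correlations of same-numbered libraries ran from -0.044 to 0.295 (median 0.065), with the highest values for replicates 4 and 1. The own number gave the best correlation among the 4 libraries of a line in 13 of 16 cases, where chance gives 1 in 4. That comes from the data and not the design, and the main fit does not model it. The replicate block, fitted without the LOUCY pair that has no number, gave 7397 genes higher, 4681 lower, 985 apart and higher and 605 apart and lower. With it CD247 passed the test (adjusted p = 0.0427), CD8B did not (1), CD3D became apart, and SRSF4, AMPD2 and RBPJ were no longer apart. Depth limited statements on genes at 0 to the floor of 3 counts.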

Other observations

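Several genes outside the lists were also nearly missing from DND-41, and were picked after their values were seen. SMAD3, which carries TGF-beta signals to the nucleus, stood at 0.242, 0.378, 0.513 and 0.837 CPM, against 10.1 CPM in TALL-1, the next line, and 73.2 to 127 CPM in the other 4. KDM5B, a histone H3 demethylase, averaged 1.69 ± 0.341 CPM, 21.8-fold below ALL-SIL. SRGN, the proteoglycan of secretory granules, averaged 0.515 ± 0.212 CPM, 25.4-fold below ALL-SIL, and IRS2, an adapter of insulin receptors, 0.538 ± 0.290 CPM, 29-fold below LOUCY. All 4 genes were apart and below every other library. In the other direction, GSDME, a pore-forming gasdermin, stood at 36.3, 43.0, 42.6 and 25.04 CPM, 17.0-fold over HPB-ALL and above every other library.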
